A study of Mus musculus with 8 samples.

Results

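The collagen gene family was followed here through hearts of male mice that lack Gpihbp1. Its members were the 43 of 17190 listed genes whose symbol has the form Col, a number, a and a number (as in Col1a1), and the choice used no measured value. They were set apart by the structure their proteins form: 11 fibrillar collagens, 6 basement membrane collagens and 26 other collagens. The tested animals were Gpihbp1-/- mice (knockout 1, 2, 3 and 4), and they were set against wild-type mice (wild-type 2, 4, 5 and 6). All were males fed standard chow, and whole-heart polyadenylated RNA was sequenced from each. The labels give no age, strain, litter, batch or collection day, and do not say how the Gpihbp1 allele was made. They name no promoter or cell type that restricts the deletion.

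Collagens are secreted proteins of 3 chains wound into a triple helix. Fibrillar collagens assemble into the banded fibrils that give the heart wall its tensile strength, and in the heart they are made mainly by fibroblasts. Type IV collagens form the sheet-like network of basement membranes, which surrounds cardiomyocytes and capillaries. The other members link fibrils to each other, form beaded filaments or short-chain networks, or stay anchored in cell membranes. Gpihbp1 encodes the endothelial protein that carries lipoprotein lipase to the capillary lumen, and the series was made to learn what its loss does to the heart.

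Levels are given as the deposited TPM (a depth-scaled level that corrects for gene length), and differences between genotypes come from the deposited estimated counts. Of the 43 members, 29 passed the filter on low counts and were tested: 8 of 11 fibrillar, 6 of 6 basement membrane and 15 of 26 other collagens. In all, 22 members had a mean of at least 1 TPM over the 8 hearts, 33 had at least 1 read in every library, and 5 had fewer than 10 reads in the 8 libraries together. Total counts ran from 10346932 to 13443538 in knockout hearts and from 9065561 to 13492971 in wild-type hearts. Gpihbp1 had 0, 0, 1 and 0 reads in knockout 1, 2, 3 and 4, and 1108, 1951, 833 and 1783 reads in wild-type 2, 4, 5 and 6. Summed TPM of 6 cardiomyocyte markers was 40870 to 80184 in knockout hearts and 39156 to 72409 in wild-type hearts.

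Before any result, 2 hearts have to be set apart in the description. Knockout 2 and wild-type 2 had far more collagen RNA than the other 6 hearts, and they did so in both genotypes. Collagens took 0.183%, 1.48%, 0.116% and 0.190% of the reads of knockout 1, 2, 3 and 4, and 1.06%, 0.237%, 0.197% and 0.0892% of the reads of wild-type 2, 4, 5 and 6. Wild-type 6 also differed, with 643 TPM of the atrial myosin light chain Myl7 against at most 1.72 TPM in each of the other hearts. The labels give none of these hearts a condition of its own, so all 8 stay in the comparison and results that rest on them are given with and without them.

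No collagen gene passed the test of genotype. In edgeR's quasi-likelihood test with Benjamini-Hochberg adjustment, 0 of the 29 tested collagens had an adjusted p under 0.05, and 0.0312% of all 12826 tested genes did. At an unadjusted p under 0.05 the count was again 0 of 29, where 0.904% of all tested genes passed. The 4 knockout and the 4 wild-type hearts overlapped in the CPM (counts scaled to library size by TMM) of every tested collagen, while 0.632% of tested genes had groups that did not overlap. DESeq2 called 0 of the 35 collagens for which it gave a p, and 0.0481% of all genes with one. It gave no p to Col3a1, Col1a2, Col1a1, Col5a1, Col5a2, Col8a1, Col14a1 and Col12a1. Because nothing in the labels says how the animals were related, these p-values speak of the spread among the 8 animals sequenced.

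The intervals show how little the fibrillar comparison could resolve. The median log2 fold change, knockout over wild-type, was 0.20 for the 8 fibrillar, 0.08 for the 6 basement membrane and -0.15 for the 15 other collagens, beside -0.02 for all tested genes. Leaving out knockout 2 put the fibrillar median at -1.88, leaving out wild-type 2 put it at 1.91, and leaving out both put it at -0.23. Without both, the basement membrane median was -0.09, the median of the others -0.17 and that of all tested genes -0.03. Of the fibrillar members 5 had a positive and 3 a negative log2 fold change. For the basement membrane members these counts were 4 and 2, and for the other members 3 and 12. Without knockout 2 and wild-type 2 they were 2 and 6, 2 and 4, and 5 and 10 in the same order. Among all tested genes they were 6046 and 6780 over 8 hearts, and 5783 and 6983 without both. The median standard deviation of log2 CPM within a genotype was 1.80 for fibrillar, 0.56 for basement membrane and 0.88 for other collagens, against 0.46 for all tested genes. A p that misses the threshold therefore does not show that fibrillar levels were equal. The plot of fold changes shows intervals for Col3a1, Col1a2, Col1a1, Col5a1 and Col5a2 that span several log2 units. The other tested fibrillar genes spread less, with standard deviations of 0.75 for Col5a3, 0.86 for Col27a1 and 0.88 for Col11a2. The interval of Col5a3 ran from -1.55 to 0.47.

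**Figure D1:**
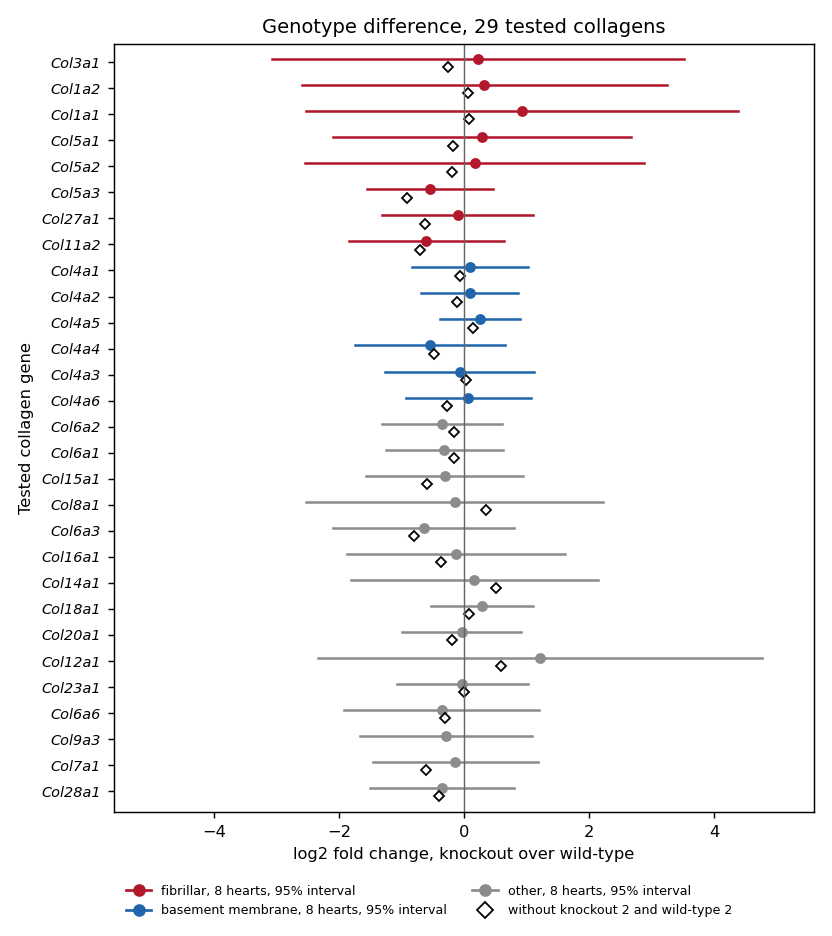
Log2 fold change, knockout over wild-type, of the 29 tested collagens on the x axis, with 1 gene per row on the y axis, coloured by class; filled points and bars are the estimate and 95% interval from 8 hearts, and open diamonds the estimate without knockout 2 and wild-type 2. Every bar crosses 0, the widest belonging to Col12a1, Col1a1 and Col3a1, and the diamonds of the 8 fibrillar genes lie between -0.91 and 0.07 (Col9a3, which did not pass the filter on low counts there, has none).

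Col3a1, the single chain of type III collagen, was the most abundant collagen on average. It had 30.8, 1220, 24.4 and 50.1 TPM in knockout 1, 2, 3 and 4, and 791, 45.3, 53.1 and 14.9 TPM in wild-type 2, 4, 5 and 6. Knockout 2 and wild-type 2 were high, and the other 6 hearts overlapped between genotypes. The log2 fold change was 0.22 with a standard error of 1.46 and a 95% interval from -3.07 to 3.51 (edgeR, adjusted p = 1.0). Without knockout 2 and wild-type 2 it was -0.26 ± 0.32 (SE).

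Col1a2 and Col1a1 encode the chains of type I collagen, the main collagen of cardiac scar and interstitium. Col1a2 had 26.1, 631, 25.6 and 34.9 TPM in knockout 1, 2, 3 and 4, and 384, 26.1, 37.1 and 10.8 TPM in wild-type 2, 4, 5 and 6. Col1a1 had 15.4, 756, 12.2 and 24.0 TPM in the knockout hearts in the same order, and 293, 18.5, 27.0 and 2.93 TPM in the wild-type hearts. Both genes were high in knockout 2 and wild-type 2, and in TPM both were lowest in wild-type 6. In TMM-scaled CPM that held for Col1a1 (30.8 CPM), but Col1a2 had 99.4 CPM in wild-type 6, beside 98.4 CPM in wild-type 4 and 99.1 CPM in knockout 1. The log2 fold change was 0.33 ± 1.29 for Col1a2 and 0.93 ± 1.53 for Col1a1 (SE), and without knockout 2 and wild-type 2 it was 0.06 ± 0.26 and 0.07 ± 0.44.

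The promoter windows of the 2 fibrillar genes with the highest mean that have an entry in the RefSeq table are shown because these genes were high in the same hearts. Each runs from 250 bases before to 50 bases after the annotated start, 5′ to 3′ on the gene's strand, from RefSeq GRCm38.p6. Capitals mark the CCAAT box with its reverse form ATTGG, the TATA box spelled TATAA with its reverse form TTATA, and the GC box spelled GGGCGG with its reverse form CCGCCC, searched on both strands. Col3a1 lies at chr1:45311288-45311587 on the plus strand and Col1a2 at chr6:4505368-4505667 on the plus strand.
Col3a1: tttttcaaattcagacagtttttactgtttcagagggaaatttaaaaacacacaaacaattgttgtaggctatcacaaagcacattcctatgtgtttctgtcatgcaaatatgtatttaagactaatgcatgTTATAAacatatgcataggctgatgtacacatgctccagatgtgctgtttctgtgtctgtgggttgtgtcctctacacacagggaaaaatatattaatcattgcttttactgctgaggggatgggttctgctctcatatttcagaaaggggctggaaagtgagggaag
Col1a2: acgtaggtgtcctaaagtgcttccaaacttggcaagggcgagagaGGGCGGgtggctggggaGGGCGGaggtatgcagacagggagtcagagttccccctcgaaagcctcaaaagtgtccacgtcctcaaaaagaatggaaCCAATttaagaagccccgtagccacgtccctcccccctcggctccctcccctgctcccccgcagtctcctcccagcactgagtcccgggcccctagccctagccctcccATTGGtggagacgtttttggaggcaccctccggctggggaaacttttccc

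The Col1a2 window held CCAAT 109 bases before the start, ATTGG beginning at the start, and GGGCGG 205 and 188 bases before it. The Col3a1 window held TTATA and TATAA, which share letters, at 118 and 117 bases before the start. Of 32851 windows of the same length, 37.4% held CCAAT, 24.9% held TATAA and 35.7% held GGGCGG on either strand. Over the 37 windows of the 34 collagen genes that matched the table, 13 held CCAAT, 6 held TATAA and 23 held GGGCGG. A match describes letters and not a bound site.

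Type V chains, which sit inside type I fibrils and set their diameter, split by chain. Col5a1 had 7.18, 98.0, 5.10 and 8.71 TPM in knockout 1, 2, 3 and 4, and 57.8, 7.97, 10.7 and 2.78 TPM in wild-type 2, 4, 5 and 6. Col5a2 had 5.31, 97.0, 4.27 and 5.68 TPM in the knockout hearts, and 64.5, 6.90, 6.28 and 2.22 TPM in the wild-type hearts. Both chains followed Col3a1 in being high in knockout 2 and wild-type 2. Col5a3, the third chain, had 8.20, 23.3, 4.00 and 10.9 TPM in the knockout hearts, and 18.2, 21.2, 13.8 and 4.25 TPM in the wild-type hearts, with wild-type 4 above wild-type 2. The log2 fold changes were 0.28 ± 1.06, 0.17 ± 1.20 and -0.54 ± 0.45 (SE) for Col5a1, Col5a2 and Col5a3.

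The remaining fibrillar members were low. Col27a1 had 1.12 to 4.97 TPM in knockout hearts and 0.36 to 4.05 TPM in wild-type hearts. Col11a2 had 1.10 to 2.52 TPM and 0.40 to 4.76 TPM in the same order. Col2a1, the chain of cartilage type II collagen, had 2, 2, 1 and 1 reads in knockout 1, 2, 3 and 4, and 1, 1, 1 and 0 reads in wild-type 2, 4, 5 and 6. Col11a1, its partner in cartilage fibrils, had 0, 7, 0 and 0 reads in the knockout hearts and 5, 1, 0 and 0 reads in the wild-type hearts. Col24a1 had 24 reads in all, and none of these 3 was tested.

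**Figure D2:**
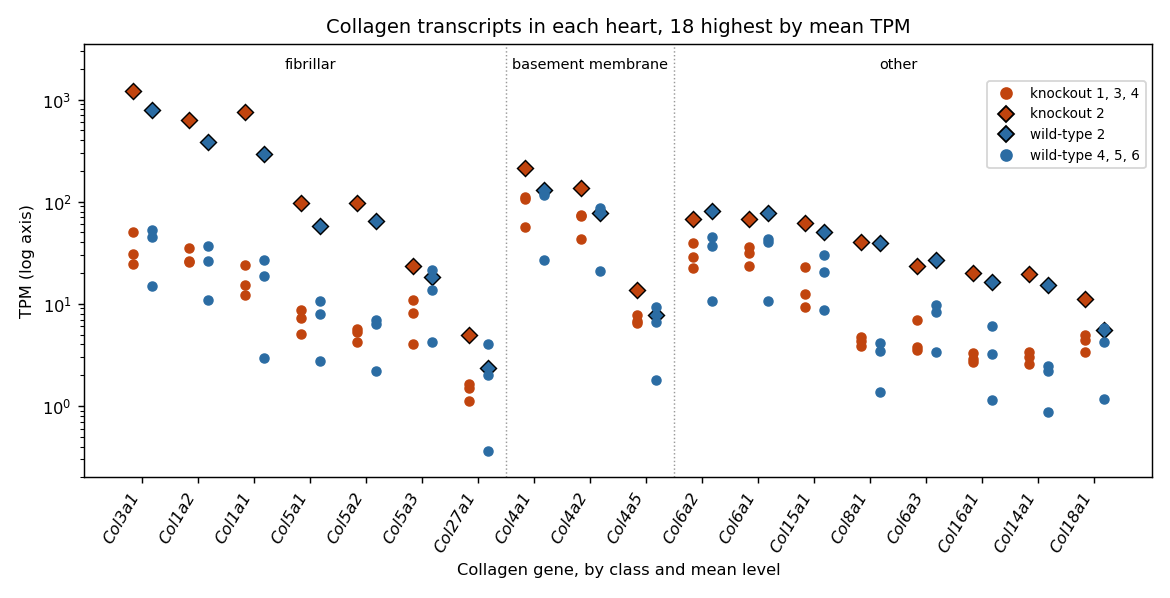
Deposited TPM (log axis) of the collagens with the highest levels, by class, with knockout hearts left of wild-type hearts for each gene, 1 point per heart and diamonds for knockout 2 and wild-type 2. Knockout 2 and wild-type 2 stand above the others for Col3a1 (1220 and 791 TPM), Col1a2, Col1a1, Col5a1 and Col5a2. For the fibrillar genes Col5a3 and Col27a1, wild-type 4 (21.2 and 4.05 TPM) lies above wild-type 2 (18.2 and 2.37 TPM). The type IV chains shown spread less than Col3a1 does.

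Basement membrane collagens were steadier by the median of their class, with a standard deviation of log2 CPM within a genotype of 0.56. That did not hold for Col4a4 (0.93) and Col4a3 (0.80). Col4a1 and Col4a2, the chains of the type IV network found in every basement membrane, were the most abundant of their class. Col4a1 had 112, 212, 56.1 and 106 TPM in knockout 1, 2, 3 and 4, and 130, 122, 117 and 26.6 TPM in wild-type 2, 4, 5 and 6. Col4a2 had 71.8, 135, 43.4 and 74.2 TPM in the knockout hearts and 77.1, 80.7, 85.9 and 21.0 TPM in the wild-type hearts. Wild-type 6 was low in TPM for both, and on the TMM-scaled CPM scale its Col4a1 (313 CPM) lay beside knockout 3 (300 CPM). The log2 fold change was 0.09 ± 0.41 for Col4a1 (95% interval -0.83 to 1.02) and 0.09 ± 0.35 for Col4a2 (SE). These intervals are narrower than those of the fibrillar chains.

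Col4a1 and Col4a2 lie head to head, and their windows are shown because the 2 genes also held a steady ratio. Their annotated starts are 21 bases apart on opposite strands, and the annotated transcripts overlap between these starts. Their windows share 78 bases (chr8:11312777-11312854, GRCm38.p6). The Col4a1 window is chr8:11312777-11313076 on the minus strand and the Col4a2 window chr8:11312555-11312854 on the plus strand, each printed 5′ to 3′ on the gene's strand with the same capitals.
Col4a1: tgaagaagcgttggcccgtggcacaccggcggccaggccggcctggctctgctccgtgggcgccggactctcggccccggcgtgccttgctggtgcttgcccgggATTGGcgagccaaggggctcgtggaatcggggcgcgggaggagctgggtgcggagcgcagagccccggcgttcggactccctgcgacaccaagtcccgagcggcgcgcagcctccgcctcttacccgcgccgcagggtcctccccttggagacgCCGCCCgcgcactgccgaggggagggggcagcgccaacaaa
Col4a2: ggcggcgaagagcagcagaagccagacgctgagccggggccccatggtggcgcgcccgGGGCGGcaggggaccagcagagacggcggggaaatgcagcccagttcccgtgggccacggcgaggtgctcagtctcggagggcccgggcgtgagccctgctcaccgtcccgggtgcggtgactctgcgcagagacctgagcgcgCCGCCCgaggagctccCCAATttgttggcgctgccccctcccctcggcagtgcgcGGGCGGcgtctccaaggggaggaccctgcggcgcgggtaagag

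The Col4a1 window held ATTGG, the reverse of CCAAT, 145 bases before its start, and the Col4a2 window held CCAAT 32 bases before its start. Of GC boxes, the Col4a1 window held CCGCCC at base 10 from its start. The Col4a2 window held GGGCGG 192 bases and CCGCCC 48 bases before its start, and GGGCGG at base 8 from it. Neither held TATAA on either strand. The ratio of Col4a1 to Col4a2 TPM was 1.56, 1.56, 1.29 and 1.42 in knockout 1, 2, 3 and 4, and 1.68, 1.51, 1.36 and 1.27 in wild-type 2, 4, 5 and 6. The ratio thus spanned 1.33-fold over the 8 hearts, while Col4a1 itself spanned 7.98-fold in TPM and 3.04-fold in TMM-scaled CPM. The genes Col4a6 and Col4a5 are also head to head, but without such an overlap, with annotated starts 1343 bases apart on chromosome X. Their ratio was not steady: Col4a5 over Col4a6 TPM ran from 13.8 in wild-type 6 to 58.4 in knockout 3, a 4.22-fold span. Col4a6 had only 6 to 33 reads per library.

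The chains of the specialised type IV networks were lower. Col4a5 had 7.69, 13.5, 6.42 and 6.81 TPM in knockout 1, 2, 3 and 4, and 7.76, 6.70, 9.27 and 1.80 TPM in wild-type 2, 4, 5 and 6. Col4a3 and Col4a4, which join Col4a5 in the kidney filter, ran the other way from Col3a1, Col1a2 and Col1a1 in the hearts numbered 2. Among the fibrillar genes, Col11a2 lay below the median of the others there too. Its CPM was 0.706 times that median in knockout 2 and 0.382 times in wild-type 2. Col4a4 had 1.70, 0.34, 0.88 and 1.49 TPM in the knockout hearts and 0.63, 2.65, 1.98 and 0.55 TPM in the wild-type hearts. Col4a3 had 0.55, 0.17, 0.33 and 0.81 TPM in the knockout hearts and 0.27, 0.75, 0.68 and 0.13 TPM in the wild-type hearts. Both were lowest among knockout hearts in knockout 2, and in TPM both were low in wild-type 2 and wild-type 6. On the TMM-scaled CPM scale Col4a4 in wild-type 6 (9.28 CPM) lay above wild-type 2 (5.02 CPM) and knockout 3 (6.56 CPM). Col4a6 had 0.36, 0.52, 0.11 and 0.22 TPM in the knockout hearts and 0.22, 0.30, 0.29 and 0.13 TPM in the wild-type hearts. The log2 fold changes were 0.25 ± 0.29 for Col4a5, -0.55 ± 0.53 for Col4a4, -0.07 ± 0.53 for Col4a3 and 0.07 ± 0.44 for Col4a6 (SE).

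Type VI collagen forms beaded filaments at the edge of basement membranes. Col6a2 had 28.4, 67.3, 22.4 and 39.7 TPM in knockout 1, 2, 3 and 4, and 81.4, 36.4, 45.5 and 10.6 TPM in wild-type 2, 4, 5 and 6. Col6a1 had 31.6, 68.0, 23.3 and 36.1 TPM in the knockout hearts and 77.6, 42.6, 40.4 and 10.6 TPM in the wild-type hearts. These 2 chains of 1 molecule kept a ratio of Col6a1 to Col6a2 between 0.89 and 1.17, a span of 1.32-fold. Their log2 fold changes were -0.32 ± 0.42 for Col6a1 and -0.36 ± 0.43 for Col6a2 (SE).

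Col6a3, the third and longest common chain of type VI, had 3.80, 23.2, 3.51 and 6.91 TPM in knockout 1, 2, 3 and 4, and 26.6, 8.34, 9.80 and 3.36 TPM in wild-type 2, 4, 5 and 6. Its log2 fold change was -0.64 ± 0.64 (SE) over 8 hearts. Without knockout 2 and wild-type 2 it was -0.80 ± 0.29. It was the 1 tested collagen with an unadjusted p under 0.05 in edgeR's fit of those hearts, and its adjusted p was 1.0. In that fit 1.16% of all tested genes had such a p, 0.0235% passed the adjusted threshold, and 0 collagens did. On the CPM scale of that fit Col6a3 had 23.7, 23.4 and 41.9 CPM in knockout 1, 3 and 4, and 51.5, 53.8 and 49.3 CPM in wild-type 4, 5 and 6, so the groups did not overlap.

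Of the 29 collagens tested in those 6 hearts, 1 (Col6a3) lay lower in every knockout heart than in any wild-type heart, beside 2.34% of all tested genes. Another 2, Col8a1 and Col14a1, lay higher in every knockout heart, beside 2.25% of all tested genes. Col14a1 had 13.9, 16.6 and 11.7 CPM in knockout 1, 3 and 4, and 10.02, 9.90 and 9.56 CPM in wild-type 4, 5 and 6. Col8a1 had 17.3, 15.1 and 15.3 CPM against 12.4, 13.3 and 11.7 CPM in the same hearts. The gaps were small beside the levels of these genes in knockout 2 and wild-type 2, and counts of 1 and 2 of 29 are no result about the family against those shares.

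Col8a1, a short-chain collagen of vessel walls, had 4.74, 40.5, 3.87 and 4.29 TPM in knockout 1, 2, 3 and 4, and 39.2, 3.41, 4.14 and 1.36 TPM in wild-type 2, 4, 5 and 6. Col12a1, which links fibrils to the matrix around them, had 0.12, 6.29, 0.08 and 0.15 TPM in the knockout hearts and 2.29, 0.03, 0.19 and 0.04 TPM in the wild-type hearts. Col8a1 and Col12a1 were near their lowest in 6 hearts and high in the hearts numbered 2. Col16a1, of the same fibril-associated class, had 3.26, 20.1, 2.67 and 2.86 TPM in the knockout hearts and 16.2, 6.11, 3.21 and 1.14 TPM in the wild-type hearts. Col14a1, also of that class, had 2.60 to 19.7 TPM in knockout hearts and 0.88 to 15.4 TPM in wild-type hearts. The log2 fold changes were -0.15 ± 1.06 for Col8a1, 1.21 ± 1.58 for Col12a1, 0.17 ± 0.87 for Col14a1 and -0.13 ± 0.78 for Col16a1 (SE).

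Col15a1 and Col18a1 are multiplexins of vessel and muscle basement membranes, and were classed with the other collagens. Col15a1 had 12.4, 62.2, 9.39 and 22.9 TPM in knockout 1, 2, 3 and 4, and 49.99, 20.6, 30.2 and 8.68 TPM in wild-type 2, 4, 5 and 6, with a log2 fold change of -0.31 ± 0.56 (SE). Col18a1, the source of endostatin, had 3.37 to 11.1 TPM in knockout hearts and 1.18 to 5.75 TPM in wild-type hearts. Among the remaining members, Col8a2 had 1, 16, 7 and 11 reads in the knockout hearts and 89, 4, 9 and 8 reads in the wild-type hearts, too few for a ratio to Col8a1. Col20a1, Col23a1, Col6a6, Col9a3, Col7a1 and Col28a1 were tested at a mean of 0.28 to 1.45 TPM over the 8 hearts. Col13a1, Col9a2, Col17a1, Col22a1, Col25a1 and Col26a1 had 14 to 71 reads in all, and Col19a1, Col9a1, Col6a5 and Col6a4 had 1 to 7.

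The share of collagen TPM by class followed the same hearts. Fibrillar collagens made up 25.0%, 80.5%, 29.9% and 30.3% of summed collagen TPM in knockout 1, 2, 3 and 4, and 75.1%, 28.0%, 29.7% and 30.1% in wild-type 2, 4, 5 and 6. Basement membrane collagens made up 49.8%, 10.3%, 41.1% and 41.9% in the knockout hearts and 10.05%, 44.2%, 41.8% and 39.2% in the wild-type hearts. In 6 hearts Col4a1 was the most abundant collagen, and in knockout 2 and wild-type 2 it was Col3a1. Summed collagen TPM was 389, 3517, 261 and 451 in the knockout hearts and 2148, 482, 514 and 128 in the wild-type hearts. The low TPM of wild-type 6 depend on the scale. Its TMM scaling factor was 0.678, against 0.964 to 1.16 in the other hearts. In TMM-scaled CPM its Col3a1 (146 CPM) lay above knockout 1 and knockout 3 (125 and 109 CPM), while its Col1a1 (30.8 CPM) was still the lowest.

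**Figure D3:**
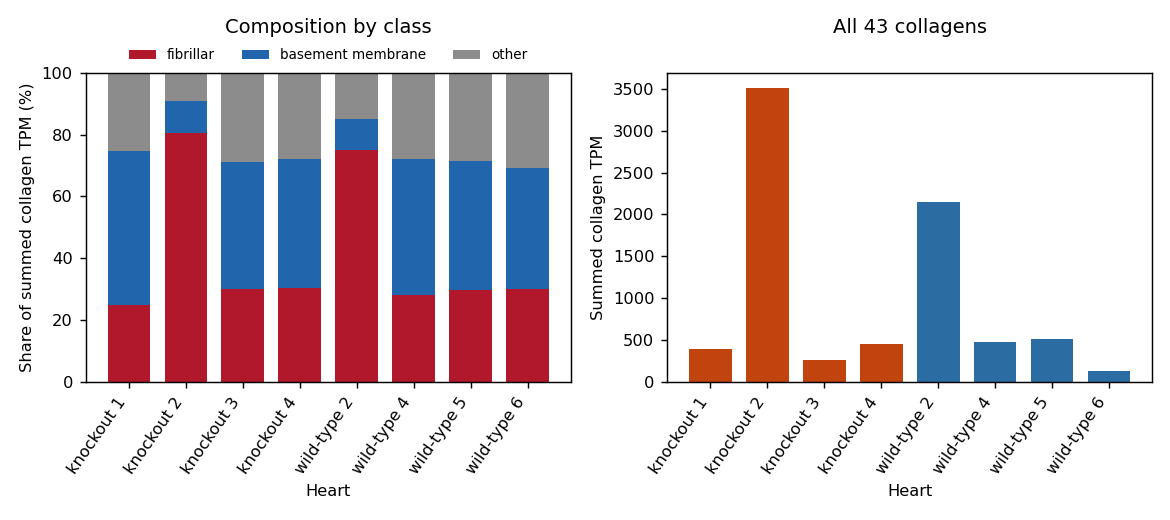
Share of summed collagen TPM (percent, y axis) by class in each of 8 hearts, with knockout hearts left of wild-type hearts. The fibrillar share is 80.5% in knockout 2 and 75.1% in wild-type 2, and between 25.0% and 30.3% in the other 6 hearts; the right panel gives summed TPM of all 43 collagens per heart, highest at 3517 in knockout 2.

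Against the median of the other 3 hearts of the same genotype, 13 of 29 tested collagens were at least 2-fold higher in both knockout 2 and wild-type 2, where 11.0% of all tested genes were. By class these were 5 of 8 fibrillar, 0 of 6 basement membrane and 8 of 15 other collagens. At most 0.5 times the median in both were 4 of 29, where 6.10% of all tested genes were, namely Col4a3, Col4a4, Col6a6 and Col23a1. The ratio in knockout 2 and in wild-type 2 was 43.6 and 34.0 for Col12a1, 43.6 and 17.9 for Col1a1, 35.1 and 19.8 for Col3a1, and 19.9 and 16.5 for Col1a2. For Col4a1 it was 1.78 and 1.38, and for Col4a2 it was 1.67 and 1.12. Because these hearts were noticed from these values, the counts describe 2 libraries and carry no test.

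**Figure D4:**
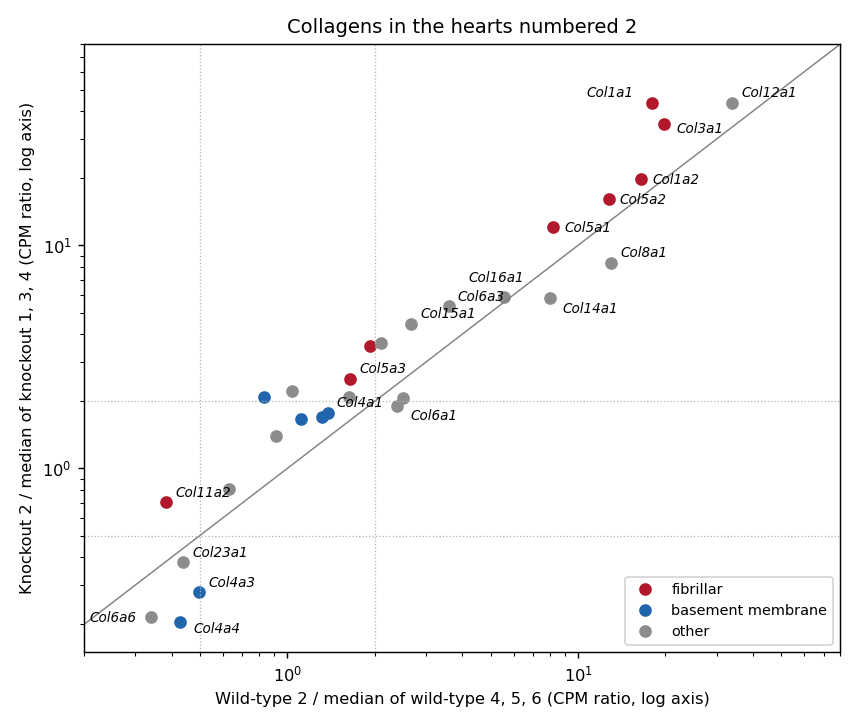
For 29 tested collagens, CPM of knockout 2 over the median of knockout 1, 3 and 4 (y axis, log) against CPM of wild-type 2 over the median of wild-type 4, 5 and 6 (x axis, log), with dotted lines at 2 and 0.5. Col12a1, Col1a1 and Col3a1 are at the upper right, the type IV chains Col4a1, Col4a2 and Col4a5 are between 1.12 and 1.78 in both, and Col4a3, Col4a4, Col6a6 and Col23a1 are at the lower left.

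Chains of 1 collagen type did not all hold their ratio. The ratio of Col1a1 to Col1a2 TPM was 0.589, 1.20, 0.474 and 0.686 in knockout 1, 2, 3 and 4, and 0.763, 0.709, 0.730 and 0.272 in wild-type 2, 4, 5 and 6, a 4.41-fold span. It was highest in knockout 2 and lowest in wild-type 6. The ratio of Col5a1 to Col5a2 ran from 1.01 to 1.53 in knockout hearts and from 0.90 to 1.71 in wild-type hearts.

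Enzymes and chaperones that make collagen were described from a list of 38 genes, of which 36 were tested. None passed the adjusted threshold (edgeR, 0 also at an unadjusted p under 0.05), 22 had a positive and 14 a negative log2 fold change, and the median was 0.07. The 4 with the smallest p in the positive direction were Tmem38b, Pcolce2, Mia3 and Loxl4. Tmem38b, an endoplasmic reticulum ion channel, averaged 32.3 ± 10.6 CPM in knockout hearts and 20.7 ± 9.996 CPM in wild-type hearts (SD, n = 4 each). Its log2 fold change was 0.64 ± 0.37 (SE). Pcolce2, which aids removal of the procollagen end piece, had a log2 fold change of 0.29, Mia3, which helps load procollagen for secretion, had 0.23, and Loxl4, a crosslinking enzyme, had 0.74. In the negative direction P3h4, a partner of the collagen lysyl hydroxylase, had -0.61, Ppib, a prolyl isomerase, had -0.46, Colgalt2, which glycosylates collagen, had -0.37, and the protease Tll2 had -0.47.

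Of these 36 genes, 20 were at least 2-fold above the median of the other 3 hearts in both knockout 2 and wild-type 2, beside the 11.0% of all tested genes. Lox, the enzyme that crosslinks fibrillar collagen, had 6.63, 406, 5.09 and 5.27 CPM in knockout 1, 2, 3 and 4, and 308, 6.27, 3.41 and 2.95 CPM in wild-type 2, 4, 5 and 6. Serpinh1, the collagen chaperone also called HSP47, had 267, 1212, 277 and 295 CPM in the knockout hearts and 1089, 305, 320 and 385 CPM in the wild-type hearts. Both were high in the hearts whose fibrillar collagens were high, Lox by 77.0 and 90.4 times and Serpinh1 by 4.38 and 3.40 times the median of the other 3 hearts. Colgalt2 and Tll2 were at most 0.5 times the median in both.

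Collagen receptors were described from a list of 11 genes, of which 10 were tested and 0 passed the adjusted threshold (0 also at an unadjusted p under 0.05). Of these 6 had a positive and 4 a negative log2 fold change, and the median was 0.14. In the positive direction the discoidin receptor Ddr1 had a log2 fold change of 0.39, and the integrin subunits Itga1, Itga2 and Itgb1 had 0.20, 0.23 and 0.18. In the negative direction the integrin subunit Itga10 had -0.77 ± 0.39 (SE), Adgrg1 had -0.13, the collagen uptake receptor Mrc2 had -0.17, and Ddr2 had -0.01. Mrc2 had 27.9, 128, 26.5 and 31.7 CPM in knockout 1, 2, 3 and 4, and 144, 34.0, 32.7 and 28.95 CPM in wild-type 2, 4, 5 and 6. It was among 4 of 10 receptors at least 2-fold higher in both hearts numbered 2, with Lair1, Itgb1 and Ddr1, beside 11.0% of all tested genes.

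Markers of cell types moved with the same hearts, and the part they play in the collagen values was not tested. In bulk RNA, more cells of a type and more RNA per cell cannot be told apart. The 6 activated fibroblast markers summed to 23.7, 748, 21.5 and 24.8 TPM in knockout 1, 2, 3 and 4, and 777, 28.6, 25.3 and 20.5 TPM in wild-type 2, 4, 5 and 6. Postn, a matrix protein of activated fibroblasts, made up most of the sum in knockout 2 (548 TPM) and wild-type 2 (618 TPM). Of the 5 tested members, 3 were at least 2-fold higher in both hearts numbered 2, beside 11.0% of all tested genes. These were Postn at 27.0 and 35.1 times the median of the others, Ltbp2 at 31.5 and 27.1 times and Thbs4 at 9.39 and 11.9 times. The other tested members rose less or not at all, Fap at 1.82 and 1.60 times and Comp at 1.28 and 0.962 times. Cthrc1, which did not pass the filter on low counts, had 134 TPM in knockout 2 and 99.2 TPM in wild-type 2. It had at most 0.82 TPM in each of the other hearts. The 5 macrophage markers summed to 207, 1165, 205 and 192 TPM in the knockout hearts and 1300, 218, 158 and 177 TPM in the wild-type hearts, and all 5 were at least 2-fold higher in both, beside the same 11.0%. Cardiomyocyte markers summed to 40870 TPM in knockout 2, against 67330 to 80184 TPM in the other knockout hearts. In wild-type 2 they summed to 39156 TPM, against 65970 to 72409 TPM in the other wild-type hearts. These sums are weighted by Myl2, at 10292 TPM in knockout 2 and 12698 TPM in wild-type 2, against at least 26913 TPM elsewhere. Of the 6 markers, Myh6 and Myl2 were at most 0.5 times the median of the others in both hearts. The median over the 6 markers was 0.458 times in knockout 2 and 0.485 times in wild-type 2. Actc1 was not the lowest there, with 17376 TPM in knockout 2 against 10369 TPM in knockout 1.

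The summed level of the fibroblast markers was not high in both hearts numbered 2, although most single markers were above the other hearts in wild-type 2. The 7 markers summed to 1736, 1128, 1281 and 1510 TPM in knockout 1, 2, 3 and 4, and 1464, 1752, 1675 and 859 TPM in wild-type 2, 4, 5 and 6. The sum is weighted by Gsn, which was 0.184 and 0.288 times the median of the others in knockout 2 and wild-type 2. Pdgfra, the receptor that marks cardiac fibroblasts, was 1.60 and 2.23 times that median, and Dcn, a small proteoglycan that binds collagen, 0.889 and 1.43 times. Tcf21 was 1.08 and 2.68 times and Dpt 1.05 and 1.76 times. Lum and Mfap5 were at least 2-fold higher in both hearts, and the median over the 7 markers was 1.08 times in knockout 2 and 2.23 times in wild-type 2.

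**Figure D5:**
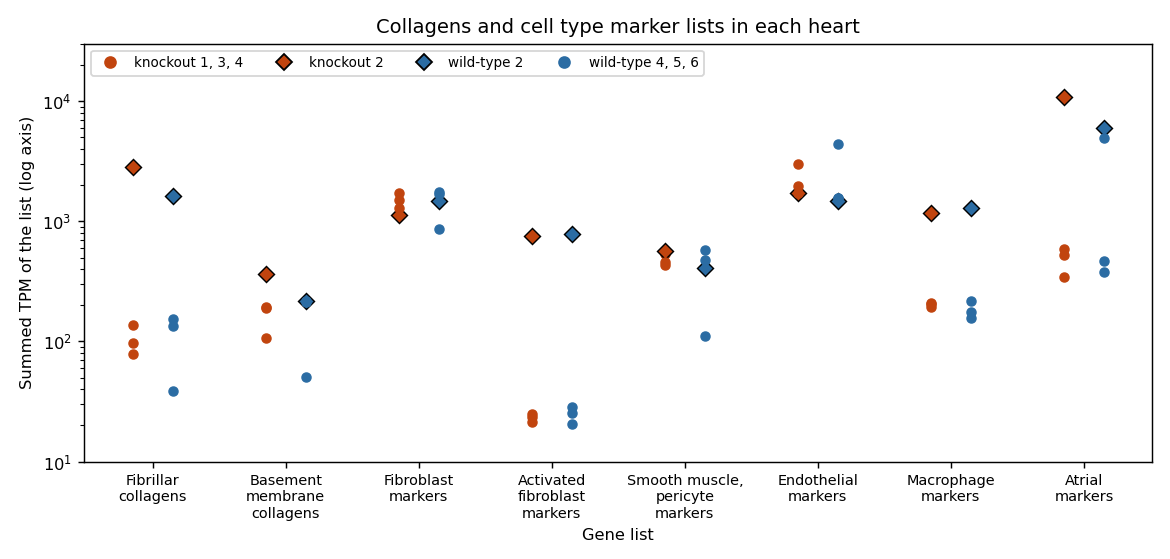
Summed TPM (log axis) of marker lists and of collagen classes in each of 8 hearts, with knockout hearts left of wild-type hearts. Activated fibroblast markers, macrophage markers and fibrillar collagens are high in knockout 2 and wild-type 2 (748 and 777 TPM for activated fibroblast markers), while basement membrane collagens (362 TPM in knockout 2 and 216 TPM in wild-type 2) lie within 2-fold of the highest other heart; diamonds mark these hearts.

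Other heart markers gave the following values beside these results. The 4 atrial markers summed to 345 to 10794 TPM in knockout hearts and 380 to 5937 TPM in wild-type hearts, and the high values came from Nppa, the atrial natriuretic peptide gene, in knockout 2 (10791 TPM), wild-type 2 (5933 TPM) and wild-type 6 (2807 TPM). Myl7 and Sln were at 0 TPM in knockout 2 and wild-type 2, while wild-type 6 had 643 and 665 TPM. Endothelial markers summed to 1711 to 2987 TPM in knockout hearts and 1474 to 4394 TPM in wild-type hearts, and smooth muscle and pericyte markers to 437 to 569 TPM and 111 to 579 TPM. Against the median of the other 3 hearts, the median endothelial marker was 0.648 times in knockout 2 and 0.403 times in wild-type 2, with Kdr, a receptor of vascular endothelial growth factor, at 0.343 and 0.317 times. Of 6 tested smooth muscle and pericyte markers, Acta2 and Tagln were at least 2-fold higher in both hearts numbered 2, and Myh11 and Rgs5 at most 0.5 times. All 3 tested Schwann markers were at most 0.5 times in both. Epicardial or mesothelial markers summed to at most 6.19 TPM in any heart, Schwann markers to at most 14.6 TPM and adipocyte markers to at most 2.02 TPM. Valve or cartilage-like markers summed to 16.2 to 50.3 TPM in knockout hearts and 20.8 to 45.2 TPM in wild-type hearts.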

How the data were processed

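RNA of 8 mouse hearts, 4 knockout and 4 wild-type, was sequenced. Per the labels' protocols, polyadenylated RNA was selected and strand-specific paired-end libraries were read on a DNBSEQ instrument. One protocol paragraph names rat tissue, though every sample is labelled mouse. Per the submitters' processing notes HISAT, Bowtie2 and build GRCm39 were used. The program that counted reads was not given in the sources used here. Deposited by the authors were expected counts, TPM and FPKM in 1 table, and 8 further per-sample columns, all empty, were not used. TPM served for levels, and FPKM for an alternative only.

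Groups came from sample titles. Expected counts were rounded and fitted with edgeR 4.0.16 in R 4.3.3 (TMM, filterByExpr minimum count 10 and minimum total 15, robust quasi-likelihood F-test, Benjamini-Hochberg, threshold 0.05), and DESeq2 1.42.0 was an alternative. CPM are TMM-scaled, and log2 CPM used a prior count of 2. Standard errors and 95% intervals come from the quasi-likelihood fit. The script was tested on simulated data. The biological coefficient of variation was 43.7%, and no library pair agreed within sampling noise (chi-square per degree of freedom at least 7.29). Estimated counts can divide reads between similar chains.

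Members, lists and alternatives were chosen with earlier results of these data known. Named were all collagens, with values per library for the 15 highest and for Col2a1, Col4a3 to Col4a6, Col8a1, Col11a1 and Col12a1, and the 4 biosynthesis and 4 receptor genes with the smallest p per direction. Other genes named were chosen after their values were seen. Promoters are RefSeq GRCm38.p6, not the authors' build.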

Additional observations from a re-analysis of the deposited data

Results flagged for a closer look

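In 14 of 38 sets of 4 hearts, formed by 19 collagens in each genotype, 1 heart lay far from the other 3 on the log2 CPM scale. The measure is the gap to the nearest heart as a share of the range, set against the 95% critical value of Dixon for 4 values, and chance alone marks about 1 in 20 such sets. The sets share the same 8 hearts and collagens vary together, so the 14 marks are not independent and are no test. Every marked heart was knockout 2 or wild-type 2, and every one was high. In knockout 2 and in wild-type 2 the share was 0.831 and 0.911 for Col3a1, 0.905 and 0.909 for Col1a2, 0.840 and 0.840 for Col5a1, 0.935 and 0.908 for Col5a2, and 0.949 and 0.951 for Col8a1. In knockout 2 alone it was 0.851 for Col1a1, 0.955 for Col16a1 and 0.862 for Col12a1. In wild-type 2 alone it was 0.935 for Col6a3. No type IV chain was marked.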

How the results depend on the processing

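The count of collagens past the threshold stayed 0 under RLE or total-count scaling, DESeq2, no filter, a strict filter (minimum count 50) and in the 8 fits that left out 1 heart. All genes past the threshold numbered 4, and 8 in DESeq2 and 2 to 3 with 1 heart left out. With a replicate block on the title numbers, of which 2 and 4 occur in both genotypes, 168 genes passed, among them 1 collagen (Col12a1, 1.43, edgeR adjusted p = 0.023) and 1 biosynthesis gene (Tmem38b, 0.98, edgeR adjusted p = 0.036). That fit leaves 1 residual degree of freedom, so its calls rest on a spread taken almost wholly from all genes together. Its genotype estimate comes only from the hearts numbered 2 and 4, since every other number occurs in 1 genotype. For Col12a1 these had 705 and 14 reads in knockout 2 and 4, and 274 and 3 reads in wild-type 2 and 4. The numbers are not known to pair animals: deviations from the group means correlated at 0.908 for number 2 and 0.110 for number 4. With 1 heart left out, the biosynthesis and receptor counts stayed 0 and the median log2 fold change ran from -1.88 (without knockout 2) to 1.91 (without wild-type 2) for fibrillar, -0.21 to 0.28 for basement membrane and -0.64 to 0.10 for other collagens. Without knockout 2, wild-type 2 and wild-type 6 the median was -0.33 for fibrillar, -0.26 for basement membrane and -0.42 for other collagens. For all tested genes it was 0.0032 in that fit. Of the log2 fold changes of named genes over all alternatives, 463 kept their direction and side of the threshold, 79 changed sign and 2 passed newly, and the cause was not tested. With 1 heart left out the ranges were -2.82 to 2.78 for Col3a1, -2.12 to 2.50 for Col1a2, -2.43 to 3.43 for Col1a1, -0.23 to 0.31 for Col4a1, -0.19 to 0.26 for Col4a2, -0.65 to 0.13 for Col6a2, -0.62 to 0.14 for Col6a1, -1.04 to 0.13 for Col15a1, -1.64 to 1.74 for Col5a1, -2.11 to 2.08 for Col5a2, -1.62 to 1.82 for Col8a1, -1.50 to 0.059 for Col6a3, -1.27 to 0.77 for Col16a1, -0.47 to 0.22 for Col4a3, -0.23 to 0.31 for Col4a6, -2.37 to 4.18 for Col12a1, -0.99 to 2.16 for Loxl4, -0.014 to 0.83 for Ddr1, -0.0093 to 0.47 for Itga1, -0.21 to 0.48 for Itgb1, -0.34 to 0.54 for Itga2, -0.39 to 0.16 for Adgrg1, -1.07 to 0.74 for Mrc2, -0.15 to 0.16 for Ddr2. Without knockout 2 and wild-type 2 the log2 fold change turned to -0.26 for Col3a1, -0.063 for Col4a1, -0.11 for Col4a2, -0.18 for Col5a1, -0.19 for Col5a2, 0.35 for Col8a1, 0.035 for Col4a3, -0.28 for Col4a6, 0.13 for Ddr2. Without wild-type 6 as well it was -0.37 for Col3a1, -0.28 for Col1a1, -0.29 for Col4a1, -0.29 for Col4a2, -0.30 for Col5a1, -0.26 for Col5a2, 0.31 for Col8a1, -0.075 for Col4a5, -0.21 for Col4a6, -0.011 for Mia3, -0.22 for Itga1, -0.047 for Itgb1. With the block it was 0.070 for Col15a1, -0.0030 for Col5a2, -0.0081 for Itga1. For Ddr2 it was 0.067 with total counts and 0.011 without a filter. The collagens at least 2-fold higher in both hearts numbered 2 numbered 11 to 14 with another heart left out, and those at most 0.5 times 2 to 5 (2 without wild-type 4, and 2 with total-count CPM); these alternatives were chosen after seeing the data. The median biological coefficient of variation was 1.02 for fibrillar collagens against 0.36 for all tested genes. The 14 members not tested had 1 to 145 reads in the 8 libraries together. The median ratio of Col5a1 to Col5a2 was 1.63 in knockout and 1.55 in wild-type hearts from CPM without length.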
